A study of Arabidopsis thaliana with 4 samples.

Results

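The XTH family of Arabidopsis thaliana, the genes XTH1 to XTH33 for xyloglucan endotransglucosylases and hydrolases, was followed in plants of ecotype Col-0 grown in a common headspace with the bacterium Pseudomonas syringae DC3000. All 33 loci, taken from the published family and matched by locus identifier to the array annotation, have a probe on the array. They are 33 of 29030 loci with a probe, and they are read by 41 of 43603 probes. Plants and bacteria shared vertical plates, plants above and bacteria below, and the plates of control plants held no bacteria. Each of the 4 samples is a 2-colour Agilent array with exposed RNA in the red dye Cy5 and control RNA in the green dye Cy3, so that each array gives exposed and control signals side by side. According to the design text, plants were grown for 8 days and exposed for 12 hours, while the sample labels give 12 days, a difference that the sources used here do not resolve. The labels name the material as plants and give no organ, and they leave unsaid whether each RNA came from its own plants. A p-value here thus reflects variation among 4 arrays that may be purely technical. No array had the dyes exchanged, so a preference of a probe for a dye and an effect of exposure cannot be told apart.

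Xyloglucan is a branched polysaccharide that coats cellulose microfibrils in the primary cell wall. XTH enzymes cut a xyloglucan chain and join the new end to another xyloglucan chain, and a few members instead pass the end to water and so shorten the chain. The activity lets a wall loosen and be rebuilt while a cell grows, and many members are known for expression in particular growing tissues and for responses to hormones, touch and shade. The family is usually divided by sequence into subgroup I (XTH1 to XTH11), subgroup II (XTH12 to XTH26) and subgroup III (XTH27 to XTH33). The members known or predicted to act as hydrolases, XTH31 and XTH32, lie in subgroup III.

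Of the 33 members, 31 passed the filter on dim probes, which asked that 1 channel be well above background on 3 or more of the 4 arrays. On every array, 29 of the 31 were well above background in both channels. XTH1 and XTH29 passed through the exposed channel, which was well above background on 3 arrays for each gene, against 2 arrays in the control channel for XTH1 and 1 array for XTH29. XTH2 and XTH3 were well above background on 1 array in each channel and were not tested. Array 4 passed nearly every probe, with 97.2% of gene spots well above background in the control channel and 99.6% in the exposed channel. On arrays 1 to 3 these shares were 75.1% to 75.4% and 77.7% to 78.9%. Among 22690 tested genes, limma called 772 at an adjusted p below 0.05, which is 3.4% of those tested, with 1.58% called higher and 1.82% called lower in exposed plants.

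Of the 31 tested XTH genes, 4 rose in exposed plants, 1 fell and 26 were not called. XTH33, XTH14, XTH22 and XTH18 rose, between 1.26-fold and 1.62-fold, and XTH10 fell by 1.07 on the log2 scale. The mean log2 ratio of exposed over control was above 0 for 25 of the 31 tested members, against 49% of all tested genes. The median over the tested members was 0.18, beside -0.0046 over all tested genes. Ratios kept 1 sign on all 4 arrays for 21 of the 31, against 37.9% of all tested genes. They were above 0 on all 4 arrays for 16 of the 31 and below 0 on all 4 for 5 of the 31, against 17.2% and 20.7% of all tested genes. Every tested member that was not called had a 95% interval that left out a 2-fold change. Like the p-values, these intervals reflect variation among 4 arrays that may be purely technical.

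**Figure D1:**
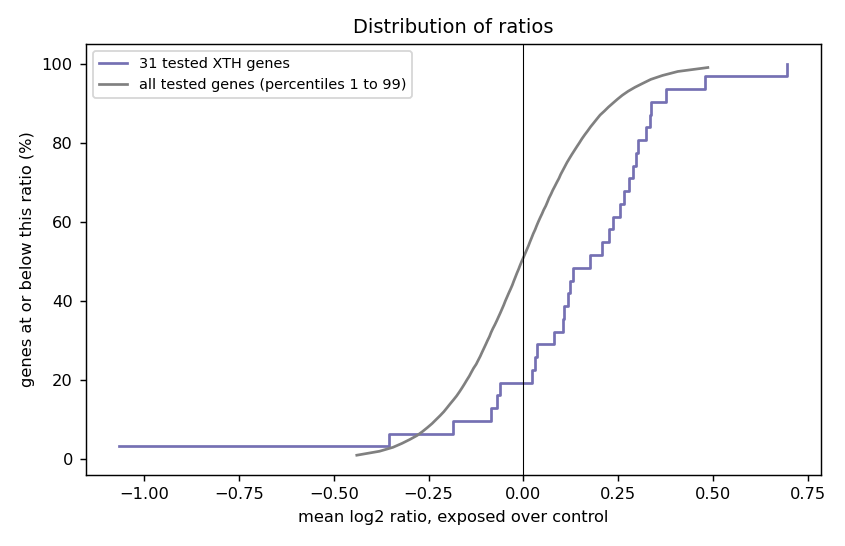
The share of genes (y axis, percent) at or below a mean log2 ratio of exposed over control (x axis) is drawn for the 31 tested XTH genes and for all tested genes between their percentiles 1 and 99. The XTH line lies to the right of the line of all genes over most of its course, with a median of 0.18 against -0.0046, and its lowest step is XTH10 at -1.07.

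Array 4 stood apart from the others, and the calls depend on how arrays 1 to 3 are counted. Its median gene spot read 1286 scanner units in the exposed channel and 575.5 in the control channel, against 336 to 373 and 292 to 362.5 on arrays 1 to 3. Across all tested genes, which are not independent replicates, log2 ratios correlated with r = 0.648 to 0.779 among arrays 1 to 3 and with r = 0.221 to 0.288 between array 4 and the others. On 33 probes spotted 5 times each, the variance between arrays 1 to 3 was 1.20 times the variance expected from repeated spots on 1 array, and with array 4 included it was 18.0 times that (30 probes). Arrays 1 to 3 therefore differed by little more than spot noise. They were kept as separate samples, as the labels number them, and with arrays 1 to 3 averaged into 1 sample limma called 0 genes and 0 XTH members (1317 genes and 4 members at an unadjusted p below 0.05). Without array 4 limma called 19 of the 31 members, 17 higher and 2 lower, where 31.1% of all tested genes were called (16.8% higher and 14.3% lower). Without array 1, array 2 or array 3 limma called 0 of all 22690 tested genes and so 0 members, with 12, 15 and 14 members and 3580, 3873 and 3494 genes at an unadjusted p below 0.05. The direction of each of the 5 called members was the same in all of these fits. This had to be so, since the ratios of each kept 1 sign on all 4 arrays, and it adds no support.

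XTH33 (AT1G10550) had the highest ratio of the family. It belongs to subgroup III and its product is predicted to be anchored in a membrane, unlike most of the family, which is secreted. On arrays 1 to 4 its normalized signal was 380.3, 337.9, 380.6 and 330.5 scanner units in exposed plants, against 211, 215, 219 and 237 in control plants. Every exposed signal lay above every control signal, although the signals are low. The log2 ratios were 0.85, 0.65, 0.80 and 0.48, with a mean of 0.70 ± 0.080 (SE, n = 4), or 1.62-fold. The adjusted p in limma was 0.0198, and the gene stood at percentile 99.9 of all tested genes. The mean of XTH33 was 0.90 with plain background subtraction and 0.93 by the scanner's own ratio. Over all settings tried it ranged from 0.62 to 0.93, and the adjusted p in limma from 1.01e-07 to 0.633.

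XTH14 (AT4G25820), a subgroup II gene whose enzyme is known from roots, was higher by nearly the same amount on every array. Its signal was 3752, 4466, 3978 and 4199 units in exposed plants, against 2842, 3153, 2841 and 2926 in control plants. The groups did not overlap, and the log2 ratios of 0.40, 0.50, 0.49 and 0.52 had an SD of 0.053. The mean of 0.48 ± 0.060 (SE, n = 4) is a 1.39-fold rise with an adjusted p of 0.0236 in limma. With median centring in place of loess the adjusted p was 0.0819, over a range of 9.14e-06 to 0.633 in all settings tried. Array 4 gave the highest of its ratios, while it gave the lowest in XTH33, XTH22 and XTH18.

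XTH22 (AT5G57560) is better known as TCH4, a gene induced by touch, by brassinosteroid and by auxin. Its signal was 957, 943, 882 and 799 units in exposed plants, against 689.8, 707, 707 and 649.8 in control plants, with no overlap. The log2 ratios were 0.47, 0.42, 0.32 and 0.30, with a mean of 0.38 ± 0.064 (SE, n = 4), or 1.30-fold, and an adjusted p of 0.0401 in limma. The call was lost with the scanner software's own log ratio (adjusted p = 0.0574), with no filter on dim probes (adjusted p = 0.0583) and with median centring (adjusted p = 0.119), over a range of 1.87e-05 to 0.633 in all settings tried.

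XTH18 (AT4G30280) belongs to a set of closely related root genes with XTH17, XTH19 and XTH20. Its signal was 7353, 6460.1, 7863 and 6722 units in exposed plants, against 5727, 5139.8, 5897 and 5745 in control plants. The groups did not overlap, and the ratios of 0.36, 0.33, 0.41 and 0.23 averaged 0.33 ± 0.063 (SE, n = 4), or 1.26-fold. The adjusted p of 0.0471 in limma was close to the threshold, and it was 0.0682 without the filter and 0.242 with median centring, over a range of 7.97e-05 to 0.633 in all settings tried. Of its relatives, XTH19 was at 0.29, XTH20 at 0.13 and XTH17 at 0.11, and none of the others was called.

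XTH10 (AT2G14620), a subgroup I gene, moved against the rest of the called members and by more than any of them. Its signal was 422, 378, 355 and 327 units in exposed plants, against 885, 768, 848 and 620.4 in control plants. Every exposed signal lay below every control signal. The log2 ratios were -1.07, -1.02, -1.25 and -0.92, with a mean of -1.07 ± 0.074 (SE, n = 4), and the adjusted p in limma was 0.0095. Its 95% interval ran from -1.24 to -0.89. The ratio was below 0 in all settings tried, at its lowest -1.18 with plain background subtraction, and the adjusted p in limma ranged from 1.4e-09 to 0.633. Only 1 probe on the array reads XTH10.

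**Figure D2:**
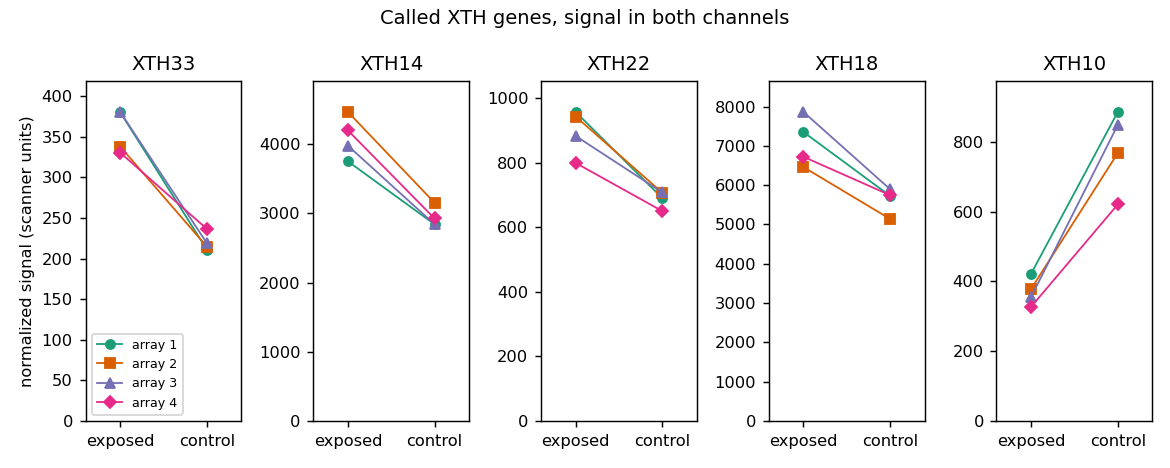
Normalized signal in scanner units (y axes, each starting at 0) is shown for the 5 called XTH genes, with the exposed channel at the left and the control channel at the right of each panel. Lines join the channels of an array. For XTH33, XTH14, XTH22 and XTH18 every exposed signal lies above every control signal, and for XTH10 every exposed signal lies below every control signal.

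Exposed and control signals did not overlap for 8 of the 31 tested members, against 9.66% of all tested genes. In 7 of them the exposed signals were all above the control signals, where 4.07% of all tested genes had this, and in 1 of them all below, against 5.59%. Besides the called genes these were XTH4, XTH7 and XTH16.

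An unadjusted p below 0.05 was reached by 17 of the 31 tested members, where 24.8% of all tested genes reached it. Besides the called genes and XTH12 these were 11 members with the same sign on all 4 arrays, 10 with a ratio above 0 and 1 below. XTH16 (AT3G23730), which like XTH15 and XTH17 is known from the shade response of petioles, came closest to the threshold. Its log2 ratios were 0.32, 0.30, 0.37 and 0.22, with a mean of 0.30 ± 0.061 (SE, n = 4) and an adjusted p of 0.0535 in limma. XTH15, also named XTR7, had ratios of 0.33, 0.36, 0.44 and 0.16, with a mean of 0.32. Array 4 gave the lowest of the 4 ratios in both genes.

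XTH24 (AT4G30270), also named MERI5 for its expression in meristems, had ratios of 0.28, 0.29, 0.28 and 0.16. Its mean was 0.25 ± 0.061 (SE, n = 4) with an adjusted p of 0.074 in limma. These values come from its brightest probe, on which arrays 1 to 3 agreed to an SD of 0.0081 and array 4 lay well below them. Array 4 was the lowest on some but not all of the other probes of XTH24. On another probe arrays 1 to 4 read 0.15, 0.25, 0.35 and 0.32. XTH23, also named XTR6, had ratios of 0.44, 0.53, 0.33 and 0.047. XTH13, whose probe is dim, had ratios of 0.37, 0.19, 0.43 and 0.12 with a mean of 0.28, which was 0.59 with plain background subtraction and 0.48 by the scanner's own ratio. It was called in neither setting. XTH19, a gene known from the healing of cut stems, had ratios of 0.26, 0.13, 0.19 and 0.58. In XTH19 array 4 was the highest, and in XTH23 and XTH13 it was the lowest.

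Of subgroup I, XTH4 and XTH7 had bright probes and small positive ratios. XTH4, which acts in stem tissues including wood, had ratios of 0.17, 0.21, 0.37 and 0.31, with a mean of 0.26. XTH7 had ratios of 0.23, 0.12, 0.32 and 0.16, with a mean of 0.21. For XTH4 and XTH7 the adjusted p in limma was 0.0779 and 0.118. With median centring their means were 0.45 and 0.40, and by the scanner's own ratio they were 0.17 and 0.12. XTH6 had ratios of 0.49, 0.13, 0.47 and 0.099, and XTH8 had ratios of 0.28, 0.38, 0.17 and 0.10. In both, the array 4 ratio was the lowest, and in XTH6 arrays 1 and 3 stood above arrays 2 and 4. XTH5 (AT5G13870) was the member with a negative ratio in this set, at -0.18, -0.23, -0.33 and -0.68, with a mean of -0.35 ± 0.096 (SE, n = 4) and an adjusted p of 0.0908 in limma. Without array 4 its mean was -0.25 and it was called lower (adjusted p = 0.00502 in limma, over a range of 0.00391 to 0.633 in all settings tried).

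The other 15 tested members had mean log2 ratios between -0.19 and 0.23 and adjusted p between 0.157 and 0.83 in limma. XTH12 was the highest of them, with 0.27, 0.28, 0.37 and -0.021 on arrays 1 to 4. XTH11 owed its mean of 0.18 to array 4, where it read 0.75 against -0.069 to 0.062 on arrays 1 to 3. XTH25 ran the other way, with 0.52, 0.17, 0.13 and -0.33. For XTH25 the mean of 0.12 has a 95% interval from -0.19 to 0.44, and without array 4 it was called higher (0.27, adjusted p = 0.00826 in limma, over a range of 0.00342 to 0.969 in all settings tried). XTH29, whose probe is dim, had -0.17, -0.099, 0.14 and 0.54, and its mean of 0.10 also rests on array 4.

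The remaining genes had small mean ratios and none was called. XTH9, known from shoot apices, was at 0.023 with a 95% interval from -0.12 to 0.16, and XTH30 was at 0.035. XTH27, known from leaf veins, was at 0.031, and XTH28, needed for the growth of stamen filaments, was at 0.12. XTH26, a root hair gene, was at 0.080. XTH21, known from root growth, was at -0.061 and XTH1 at -0.071. The members linked to hydrolysis, XTH31 and XTH32, were at -0.086 and -0.19, and neither was called. XTH32 read -0.47 on array 4, against -0.049 to -0.14 on arrays 1 to 3, and its mean without array 4 was -0.093. By the scanner's own ratio XTH31 was at -0.19 and XTH32 at -0.085. The 95% interval of XTH31 ran from -0.23 to 0.060 and that of XTH32 from -0.39 to 0.020.

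The untested members were near background. XTH2 read 92.0, 83.3, 101 and 217 units in exposed plants, against 86.0, 89.8, 103 and 135 in control plants. XTH3, whose enzyme can also act on cellulose, read 69.7, 73.5, 93.7 and 90.3 units in exposed plants, against 68.9, 76.4, 92.2 and 77.2 in control plants. In both genes the exposed and control signals overlapped.

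**Figure D3:**
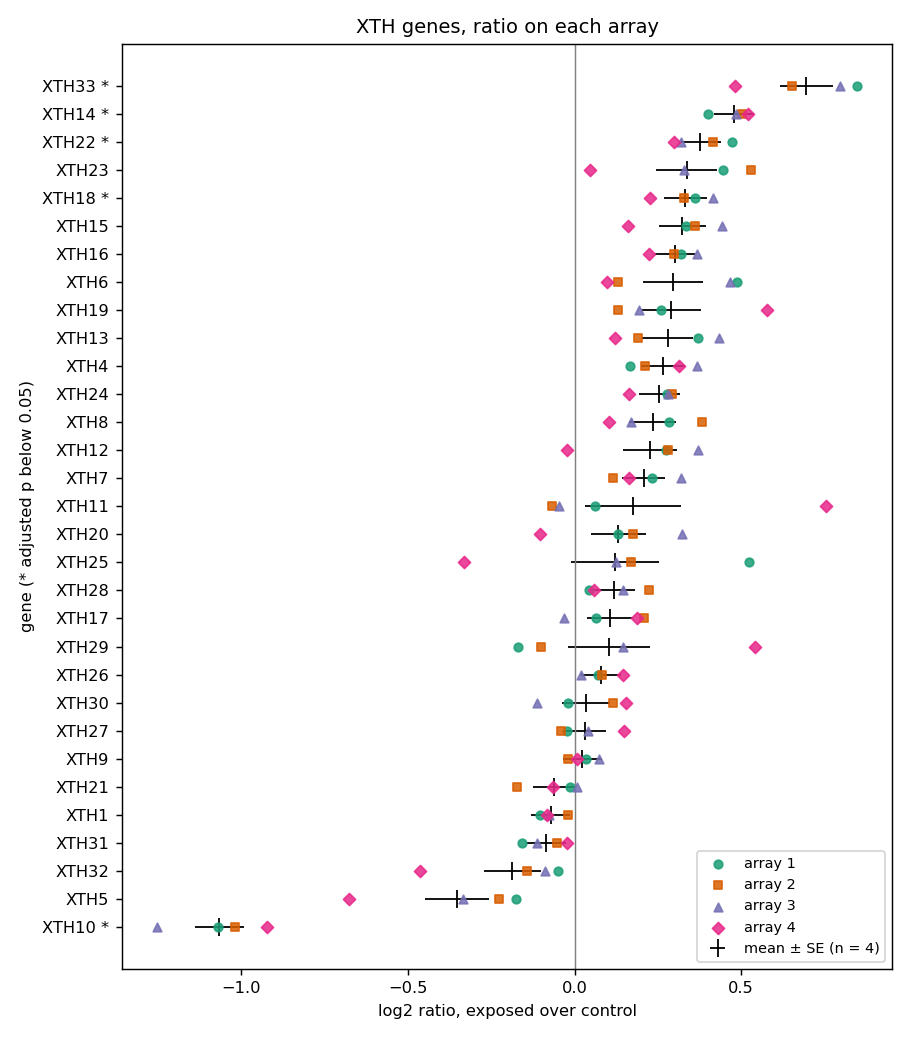
Log2 ratios of exposed over control (x axis) on each of the 4 arrays are shown for the 31 tested XTH genes (y axis, ordered by their mean), with the mean and SE as a cross (n = 4). XTH33 at 0.70 is at the top and XTH10 at -1.07 at the bottom, and the array 4 points of XTH11, XTH25 and XTH29 lie far from those of the other arrays.

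Within the family the positive ratios were mostly in subgroup II. There 14 of 15 members had a mean ratio above 0, 3 were called higher and none lower, and the median was 0.28. In subgroup I, 6 of 9 tested members were above 0, with 0 called higher, 1 called lower and a median of 0.18. This median is the mean of XTH11, which it owed to array 4. In subgroup III, 5 of 7 were above 0, with 1 called higher and a median of 0.035. On arrays 1 to 4 the subgroup II medians were 0.32, 0.28, 0.32 and 0.16. They were 0.062, -0.021, 0.074 and 0.099 in subgroup I and -0.024, -0.041, 0.039 and 0.15 in subgroup III. On array 4 the medians of subgroups II and III therefore lay close together. The difference between subgroups was not tested, since members of a family are not replicates of a condition.

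Several subgroup II genes lie beside each other in the genome, by the order of protein-coding genes in the TAIR10.1 gene table. XTH24, XTH18 and XTH19 follow each other on chromosome 4 with 0 genes between them, and their mean ratios were 0.25, 0.33 and 0.29. XTH23 and XTH14, also neighbours on chromosome 4, were at 0.34 and 0.48. On chromosome 5 XTH12 and XTH13 are separated by 1 gene, and XTH13, XTH25 and XTH22 follow each other. These 4 genes were at 0.23, 0.28, 0.12 and 0.38. XTH1 and XTH2, neighbours on chromosome 4, were at -0.071 and not tested. Probes of members with similar sequences may read each other's transcripts. Neither this nor the likeness of neighbouring members in sequence was tested.

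Of the tested members, 5 were read by several tested probes, and in 4 of these all probes gave a mean ratio of the same sign. The 5 probes of XTH24 gave 0.25, 0.27, 0.33, 0.39 and 0.44, so that the brightest, which represents the gene here, gave the lowest value. With the mean of its probes XTH24 was called higher, at 0.34 (adjusted p = 0.0425 in limma, over a range of 4.87e-04 to 0.634 in all settings tried). The probes of XTH15 gave 0.32 and 0.25, and those of XTH9 gave 0.023 and 0.052. The probes of XTH4 gave 0.26 by the brighter and 0.054 by the dimmer probe. The probes of XTH27 differed in sign, at 0.031 and -0.0010.

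**Figure D4:**
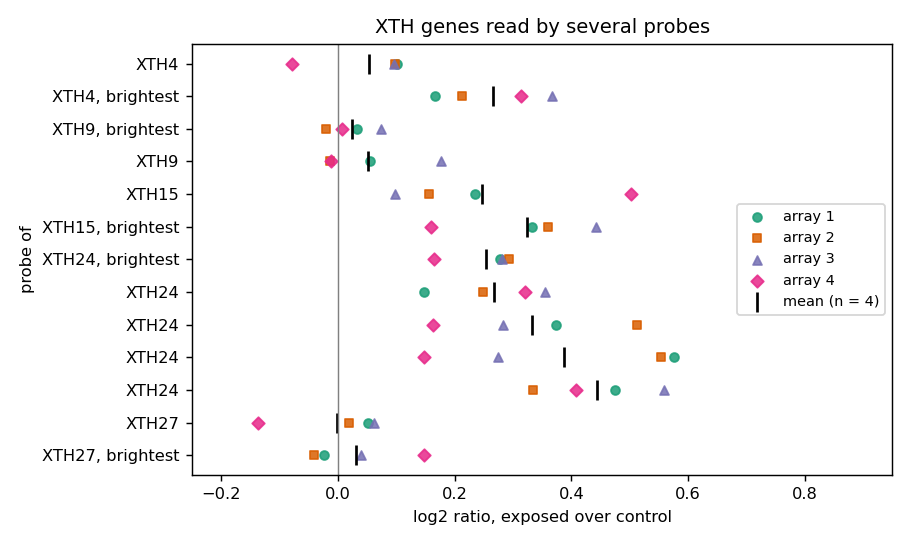
Log2 ratios of exposed over control (x axis) are shown on each array for every probe of the 5 XTH genes that several probes read, with the mean as a bar (n = 4). All 5 probes of XTH24 lie above 0 on all arrays, with means between 0.25 and 0.44, while the probes of XTH4 have means of 0.054 and 0.26.

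The arrays lay on 2 slides, with arrays 1 and 2 on the first and arrays 3 and 4 on the other, and each slide was scanned once, so that slide and scan cannot be told apart. The mean ratio had the same sign on both slides for 27 of the 31 tested members, and the share over all tested genes was not counted. Array 3 differed from arrays 1 and 2 by little more than spot noise, so the slides are not shown to be separate replicates. For XTH33 the slide means were 0.75 and 0.64, for XTH14 they were 0.45 and 0.50, and for XTH22 they were 0.44 and 0.31. XTH18 had slide means of 0.35 and 0.32 and XTH10 of -1.04 and -1.09. With the slide as a random block limma again called 4 members higher and 1 lower.

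Of 16 genes of xyloglucan synthesis, which make the glucan backbone and add its side chains, 0 were called, where 3.4% of all tested genes were, and the median ratio was -0.033. In limma 5 of the 16 had an unadjusted p below 0.05, where 24.8% of all tested genes did. The lowest p belonged to FUT1, the fucosyltransferase that caps side chains, with a log2 ratio of 0.30 and an adjusted p of 0.0641 in limma. XXT1, a xylosyltransferase, was at 0.38 and was not called. Of 3 genes for enzymes that trim side chains in the wall, 0 were called. The only unadjusted p below 0.05 in limma, against the same 24.8% of all tested genes, was that of the xylosidase gene XYL1. It was 1 of the 3, at -0.26 (adjusted p = 0.0842 in limma). Without array 4, when 31.1% of all tested genes were called, 4 synthesis genes were called higher and 1 lower, and 1 trimming gene was called lower. These counts are near the share over all genes.

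Among 9 genes of cellulose synthesis in the primary wall limma called 2 lower and 0 higher, where 1.82% of all tested genes were called lower, and the median was -0.25. The catalytic subunit genes CESA6 and CESA2, whose products share a place in the same complex, fell, both by 0.40 on the log2 scale. CESA6 read -0.38, -0.33, -0.49 and -0.38 on arrays 1 to 4 (adjusted p = 0.0348 in limma), and CESA2 read -0.34, -0.27, -0.50 and -0.49 (adjusted p = 0.0414). CESA1 (-0.28), CESA5 (-0.25), CESA9 (-0.40) and CESA3 (-0.17) were not called, nor were KOR1 (-0.087), COB (-0.091) and CSI1 (0.073), whose products act beside the synthase. Both calls ended with median centring (adjusted p = 0.227 for CESA6 and 0.247 for CESA2 in limma) and with no filter on dim probes (0.0512 and 0.0603), and that of CESA2 also with the scanner software's log ratio (0.0503), over ranges of 4.99e-05 to 0.633 and 1.92e-04 to 0.633 in all settings tried. Without array 4, 6 of the 9 were called lower, where 14.3% of all tested genes were.

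Of 5 calmodulin and calmodulin-like genes known from the touch response, 2 rose, none fell and 3 were not called. Of all tested genes 1.58% were called higher and 1.82% lower. TCH3 and TCH2 rose, as did TCH4, the XTH22 of this family. The ratios of TCH3 were 0.54, 0.63, 0.77 and 0.51, with a mean of 0.61 ± 0.069 (SE, n = 4), or 1.53-fold, and an adjusted p of 0.0196 in limma. TCH2 averaged 0.36, or 1.28-fold (adjusted p = 0.0467 in limma). The TCH2 call ended with median centring (adjusted p = 0.212), with no filter on dim probes (0.0673) and with the mean of its probes, which gave 0.18 (0.112), over a range of 2.39e-05 to 0.633 in all settings tried. TCH3 kept its call in limma in these 3 settings. TCH1 was at 0.13, CML23 at 0.068 and CML38 at -0.013.

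Of 8 genes of brassinosteroid synthesis and breakdown and of 6 genes of brassinosteroid signalling, 0 were called, where 3.4% of all tested genes were. Without array 4, when 31.1% of all tested genes were called, DET2 was called higher and BR6OX2, an enzyme gene of the last synthesis steps, lower (adjusted p = 0.00435 and 0.0292 in limma), and 0 signalling genes were called. The lowest p of the synthesis and breakdown set belonged to DET2, a steroid reductase gene, at 0.29 (adjusted p = 0.0707 in limma), and among the signalling genes to BES1, a transcription factor gene, at -0.15 (adjusted p = 0.167). The list medians were -0.039 and -0.015, beside -0.0046 over all tested genes. In each list 1 gene, DET2 or BES1, had an unadjusted p below 0.05 in limma, where 24.8% of all tested genes did.

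Organ markers moved beside these genes. Of 9 root markers 2 rose, where 1.58% of all tested genes were called higher, and the median log2 ratio of the list was 0.22. The summed signal of the list was 255088 to 277508 units in exposed plants, against 179984 to 192608 in control plants. Of 7 shoot markers 2 rose and 2 fell, where 1.58% of all tested genes were called higher and 1.82% lower. The median log2 ratio of the shoot list was 0.12. Its summed signal was 497597 to 531472 units in exposed plants, against 393188 to 428188 in control plants. A sum gives most weight to the brightest genes of its list, so it does not show that a whole list moved. The abundant root glucosidase gene PYK10 (0.61) and the root hair gene PRP3 (0.44) were the root markers that rose. The other 7 were not called. COBL9 (0.57), CASP1 (0.27), PHT1;1 (0.22), EXPA7 (0.11) and SHR (0.083) were above 0. RHD6 (-0.23, lower on all 4 arrays) and SCR (-0.073) were below 0. Without array 4 limma called 5 root markers higher and 1 lower, and 3 shoot markers higher and 2 lower. Of all tested genes, 16.8% were then called higher and 14.3% lower. All markers of both lists passed the filter on dim probes. The light-harvesting gene LHCB2.1 and the leaf polarity gene AS1 were the shoot markers that fell, and the Rubisco gene RBCS1A and the carbonic anhydrase gene CA1 rose. With the mean of a gene's probes, PYK10 (0.26), RBCS1A (0.25), LHCB2.1 (-0.35) and CA1 (-0.088, the opposite sign) were not called in limma (adjusted p = 0.0621, 0.0872, 0.0708 and 0.34). Median centring ended the calls of PRP3, LHCB2.1 and AS1 (adjusted p = 0.115, 0.105 and 0.0638 in limma). The scanner software's log ratio ended those of RBCS1A and CA1 (adjusted p = 0.0787 and 0.696). With no filter on dim probes LHCB2.1, CA1 and AS1 were not called (adjusted p = 0.0572, 0.0603 and 0.0508). In all settings tried the highest adjusted p in limma was 0.696 for CA1 and 0.633 for each of the other called markers. In RNA from plant material of unstated organ, fewer cells of a type and less RNA per cell cannot be told apart. The part of organ proportions in the XTH values was not tested.

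**Figure D5:**
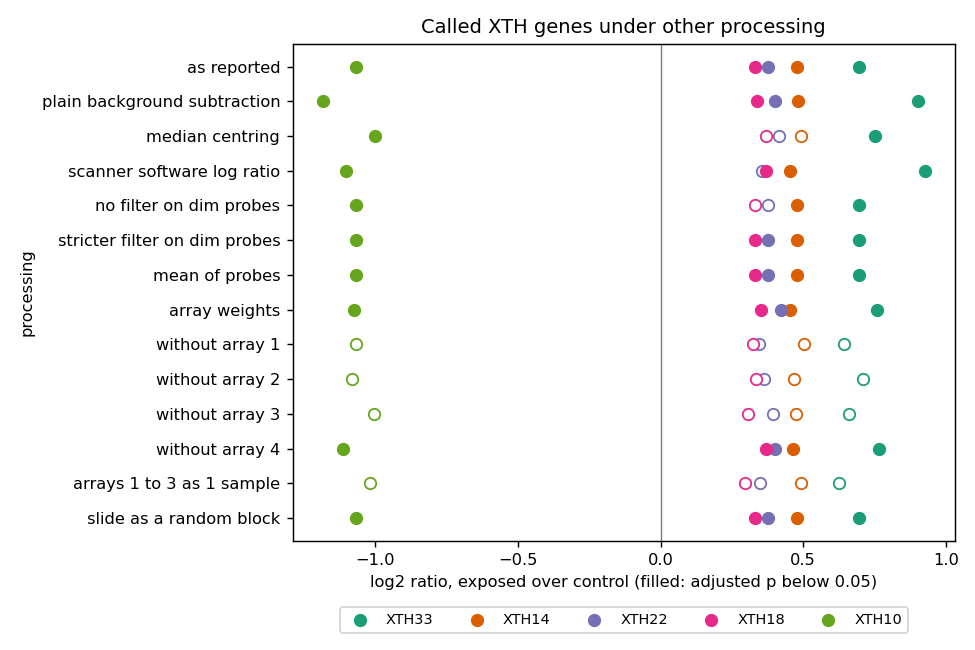
Log2 ratios of exposed over control (x axis) of the 5 called XTH genes are shown under each processing tried (y axis), with filled points where the adjusted p was below 0.05. The signs never change, XTH10 lies far to the left of the others, and all points are open when array 1, 2 or 3 is left out or when arrays 1 to 3 count as 1 sample.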

How the data were processed

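Spot intensity, with local background and quality marks, was deposited for 45220 spots per array. Per the file headers it was made with Agilent Feature Extraction 11.5.1.1, and per the submitters' processing notes with version 8.5.1.1. The deposited log10 ratio of Cy5 over Cy3, per the file headers background- and dye-corrected by the software, served as an alternative. The labels call the deposited log2 values of the series matrix exposed over control. Against the scanner columns (tolerance 0.001) this held for array 1 at all 45220 spots, while on arrays 2, 3 and 4 the values matched the error of the Cy3 signal, divided by the Cy5 signal and put on the log2 scale, at 45219, 45220 and 45220 spots. Their column medians were -0.042, -3.17, -3.17 and -3.19, and the matrix was not used further.

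In R 4.3.3 with limma 3.58.1, median signals were corrected with normexp (offset 50), since the mean signal is not a column here, and normalized within arrays by loess, with control and outlier spots at weight 0. Outlier spots (19, 19, 13 and 142 gene spots on arrays 1 to 4, none of an XTH probe) were left out, and 0 gene spots were saturated. Spots of a probe were averaged, and a gene was represented by its brightest probe among those with 1 channel well above background on 3 or more arrays. Printed signals are channel values after Aquantile scaling and include the offset. They are not compared between genes. The array number limits the precision.

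The mean log2 ratio was tested against 0 over 22690 genes with lmFit and eBayes, two-sided, with Benjamini-Hochberg adjustment and a threshold of 0.05. The fit was tested on simulated data. Names and gene order come from the TAIR10.1 gene table, which held all 33 members. The file headers name another build, so coordinates are not given. The members and lists were chosen with earlier results of these data known. Members with an adjusted p below 0.05, or with an unadjusted p below 0.05 and 1 sign on all arrays, and untested members are described individually, the other members by range with examples chosen after their values were seen. Of each further list, called genes and the lowest p are named, and further values were chosen after they were seen. Alternatives covered background, normalization, dim-probe filter, probes, array weights, left-out arrays and the slide.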

Additional observations from a re-analysis of the deposited data

Results flagged for a closer look

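Of the 31 tested XTH genes, 2 had a sample far from the other 3 by Dixon's test, in both cases array 4, and chance flags about 1 in 20 groups. XTH11 had a log2 ratio of 0.75 on array 4, against -0.069 to 0.062 on arrays 1 to 3. XTH24 had, by its brightest probe, a log2 ratio of 0.16 on array 4, against 0.28 to 0.29 on arrays 1 to 3. Not all of its other probes had this pattern.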

How the results depend on the processing

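No paired analysis was possible because exposed and control RNA already share an array and form 1 group of ratios. The count of called XTH genes, 5 as reported, was 2 with median centring, 3 with no filter on dim probes, 8 with the mean of probes and 19 with array weights, and 0 to 19 when an array was left out. For all genes, 772 as reported, the counts were 1161 with plain background subtraction, 216 with median centring, 292 with no filter and 8031 with array weights, and 0 to 7054 when an array was left out, with 3580, 3873 and 3494 genes at an unadjusted p below 0.05 in the limma fits without array 1, 2 or 3. Array weights were 2.83, 2.38, 0.92 and 0.16 for arrays 1 to 4. Of the wall, touch and brassinosteroid lists together 4 genes were called as reported (CESA2, CESA6, TCH2 and TCH3), 1 with median centring, 1 with no filter, 18 with array weights and 0 to 16 when an array was left out. With arrays 1 to 3 as 1 sample these 3 counts were 0. The split of all calls was 166 higher and 50 lower with median centring, against 358 and 414 as reported. The median of the tested XTH genes, 0.18 as reported, was 0.20 with plain subtraction, 0.21 with median centring, 0.21 with the scanner software's log ratio, 0.16 with no filter, 0.21 with a stricter filter, 0.16 with the mean of probes, 0.20 with array weights, 0.19 with arrays 1 to 3 as 1 sample and 0.17 to 0.21 when an array was left out. The median of all genes stayed between -0.026 and 0.033. Signs changed for XTH21 (0.0019) and XTH31 (0.0099) with median centring, for XTH27 (-0.017) and XTH29 (-0.079) with array weights, for XTH25 without array 1 and with arrays 1 to 3 as 1 sample (-0.029), and without array 4 for XTH11, XTH27, XTH29 and XTH30. When an array was left out, ratios ranged from -0.018 to 0.26 for XTH11, from -0.012 to 0.27 for XTH25, from -0.0084 to 0.054 for XTH27, from -0.042 to 0.20 for XTH29 and from -0.0055 to 0.084 for XTH30. None of these genes was called in the setting that changed its sign. The cause of these changes was not tested.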
